A study of Mus musculus with 8 samples.

Results

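Chemokine receptors of the white cells that enter an injured liver were followed here in mouse hepatic macrophages: Ccr1, Ccr2, Ccr3, Ccr7, Cxcr2, Cxcr3, Cxcr4, Cxcr6 and Cx3cr1. These 9 genes were taken by name from the 22180 genes tested. Each had exactly 1 array row that names it alone. The study asked how recombinant CPS1, a urea cycle enzyme of hepatocyte mitochondria given here as a protein, alters transcripts of hepatic macrophages when acetaminophen then injures the liver. In 1 group, male FVB/N mice aged 8 weeks received 50 µg of recombinant CPS1 (rCPS1) in the tail vein. In the control group, mice of the same sex, age and strain received 25 µg of recombinant transferrin (rTF), a plasma protein that carries iron, so protein and amount differ together. Both groups were given 350 mg/kg acetaminophen into the peritoneum 12 h after the protein, and no uninjured group was analysed here. Each group held 4 arrays, whose titles all read Mouse1 followed by a replicate number, so the labels do not settle whether the replicates came from separate mice. The p-values therefore cover the spread among these arrays, which may be technical, and no more.

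Chemokine receptors are G protein-coupled receptors that steer white cells along gradients of small secreted proteins, the chemokines. Their names follow the ligand class (CC, CXC or CX3C), and most inflammatory receptors bind several ligands. In the injured liver, CCR2 is best known for bringing in monocytes, CXCR2 for neutrophils, CCR3 for eosinophils, CXCR3 and CXCR6 for T and natural killer (NK) cells, CCR7 for dendritic cells and naive T cells, and CX3CR1 for monocytes that patrol vessels. CXCR4 holds cells in the bone marrow and is found on most white cells.

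Values are log2 expression levels, so a difference of 1 is a doubling. Array medians ran from 3.55 to 3.68, and the median standard error (SE) of a gene's difference was 0.15. The 8 Kupffer cell markers measured averaged 8.89 to 9.62 in the rTF arrays and 9.03 to 9.89 in the rCPS1 arrays, Marco and Cd5l among them, so markers of the labelled cells were present. Markers of other liver cells were present too. The 7 sinusoidal endothelial markers, such as Clec4g and Fcgr2b, averaged 11.5 to 11.7 in both groups. The 7 hepatocyte markers, such as Alb and Ahsg, averaged 7.59 to 8.28 with rTF and 7.26 to 7.96 with rCPS1, and the 6 B cell markers measured, such as Cd79a and Cd79b, 5.34 to 6.32 and 5.30 to 6.54. In such bulk RNA, fewer cells of a type and less RNA per cell cannot be told apart. Levels of different genes are not ranked against each other, because probe sets differ in how brightly they report the same amount of RNA. All 9 receptor genes had a mean above 3.60, the median of the rows on these arrays.

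Two-sided tests with limma over all genes called 0 of 22180 genes after Benjamini-Hochberg adjustment (0%), and none of the 9 receptor genes, whose smallest adjusted p was 0.862. At an unadjusted p under 0.05, 1035 genes (4.67%) differed, of which 619 (2.79% of all genes) were lower with rCPS1 and 416 (1.88%) higher. At any p, 54.4% of all genes had a lower mean with rCPS1, the share beside which counts of lower genes are to be read. Among the receptor genes 7 were lower and 2 higher, and 3 were lower at an unadjusted p under 0.05. These were the neutrophil receptor Cxcr2, the monocyte receptor Ccr2 and Ccr1, a receptor of monocytes, macrophages and neutrophils. Every rCPS1 array lay below every rTF array for 2 of the 9, Cxcr2 and Ccr1, against 1.97% of all genes that separated in this direction. None of the 9 separated in the other direction, as 0.947% of all genes did. The median of the 9 log2 differences was -0.31, beside -0.018 over all genes. Since the members were chosen with earlier results of these arrays known, these shares describe the genes and are not evidence of a shared change.

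**Figure D1:**
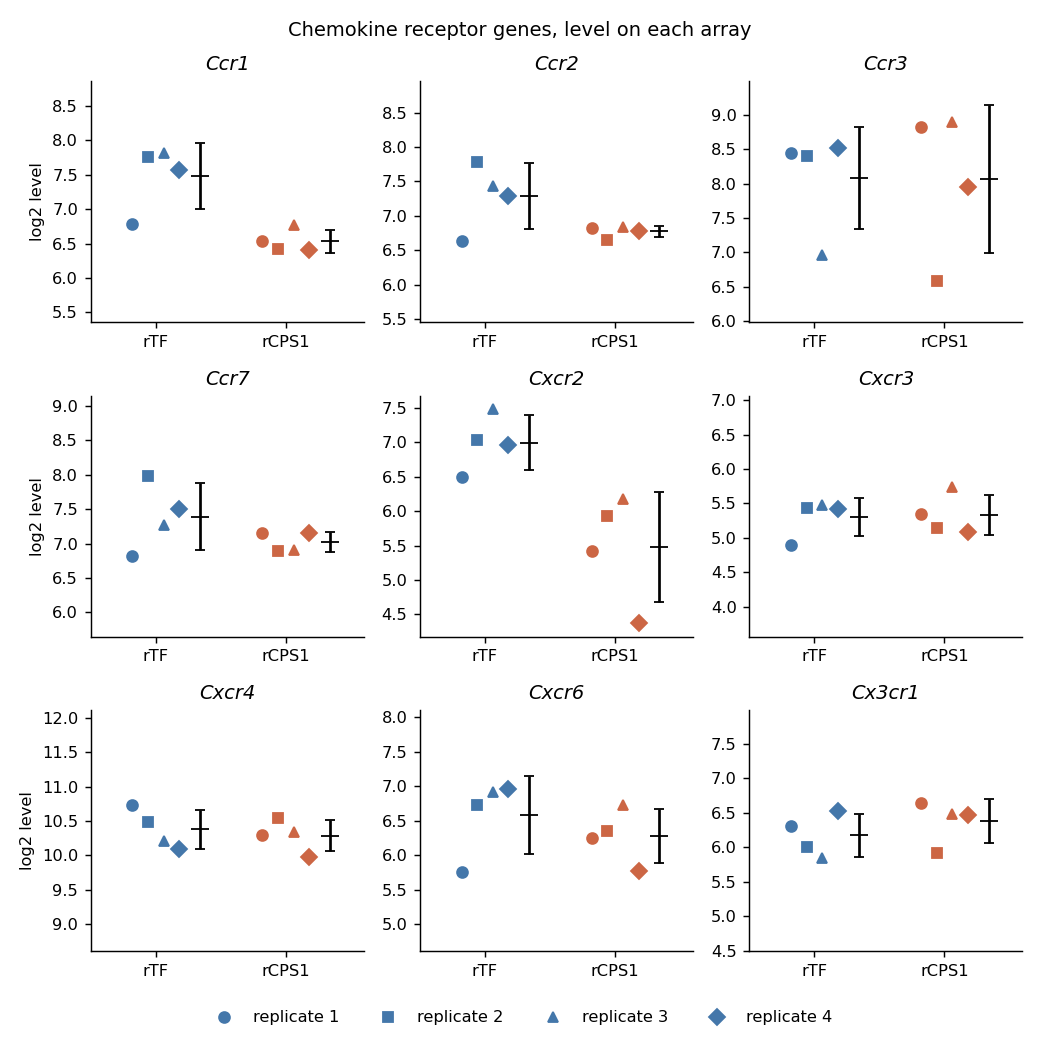
Log2 level of each of the 9 receptor genes (vertical axes, each spanning 3.5 log2 units) in the 4 rTF and the 4 rCPS1 arrays. Marker shapes give the replicate number and black bars the group mean with its SD. The groups are apart for Ccr1 and Cxcr2 and overlap for the other 7 genes.

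The promoters of the 3 receptor genes with the lowest values after rCPS1 relative to rTF are shown first, so that the genes behind the values can be seen as sequence. They come from RefSeq (build GRCm38.p6), run 5′ to 3′ on the gene's strand and cover 250 bases before to 50 after the start. The Ccr1 window lies at chr9:123968643-123968942 on the minus strand, the Cxcr2 window at chr1:74153744-74154043 on the plus strand and the Ccr2 window at chr9:124101933-124102232 on the plus strand. Capitals mark GAGGAA, on either strand, a PU.1-type form of the core bound by ETS factors. PU.1 is an ETS factor of the myeloid lineage.
Ccr1: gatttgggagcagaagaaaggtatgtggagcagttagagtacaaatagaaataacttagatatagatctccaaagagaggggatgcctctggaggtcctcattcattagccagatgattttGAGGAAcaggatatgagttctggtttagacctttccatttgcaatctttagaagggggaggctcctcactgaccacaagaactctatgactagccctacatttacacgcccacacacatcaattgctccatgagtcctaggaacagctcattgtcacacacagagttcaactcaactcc
Cxcr2: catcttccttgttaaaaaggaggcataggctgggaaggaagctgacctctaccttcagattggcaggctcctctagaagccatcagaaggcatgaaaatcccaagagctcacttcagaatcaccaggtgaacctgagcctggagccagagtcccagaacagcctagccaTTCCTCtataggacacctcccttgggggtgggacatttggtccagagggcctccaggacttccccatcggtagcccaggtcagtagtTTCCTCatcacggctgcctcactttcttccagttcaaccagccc
Ccr2: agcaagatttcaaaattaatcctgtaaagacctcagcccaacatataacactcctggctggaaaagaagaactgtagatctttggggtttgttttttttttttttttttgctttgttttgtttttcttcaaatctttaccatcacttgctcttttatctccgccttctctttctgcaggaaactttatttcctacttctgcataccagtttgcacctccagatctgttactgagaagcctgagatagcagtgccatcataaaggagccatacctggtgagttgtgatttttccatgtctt
GAGGAA was found once in the Ccr1 window, at base 122 counted from the 5′ end. In the Cxcr2 window it was found at bases 170 and 257, each time on the opposite strand, where it reads TTCCTC. The Ccr2 window held none, but shorter forms of the ETS core were not searched for. Of 32851 RefSeq promoter windows of this length, 28.3% hold the motif, and among the receptor genes 4 of the 8 with an entry did (Ccr1, Ccr3, Cxcr2 and Cxcr3). A C/EBP-type motif (TTGCNNAA, in 10.8% of all windows, either strand) was in none of the 8, and an AP-1-type motif (TGANTCA, in 7.81%) only in that of Ccr3, where it did not overlap GAGGAA. These matches describe letters, not binding.

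Cxcr2, the receptor that leads neutrophils to CXC chemokines such as CXCL1 and CXCL2, had the lowest log2 difference of the 9 genes. It stood at 6.50, 7.03, 7.48 and 6.96 in rTF replicates 1 to 4 and at 5.41, 5.92, 6.18 and 4.37 in rCPS1 replicates 1 to 4. The highest rCPS1 array lay 0.32 below the lowest rTF array, and rCPS1 replicate 4 was the lowest of the 8. The group means were 6.99 ± 0.40 for rTF and 5.47 ± 0.80 for rCPS1 (SD, n = 4 each). They differed by -1.52 ± 0.36 (SE), so that rCPS1 was 2.87-fold lower. The 95% interval ran from -2.32 to -0.72, and limma gave an adjusted p of 0.862 over all genes. A two-sided exact permutation test gave p = 0.0286, the smallest that 4 against 4 allows. Without rCPS1 replicate 4 the difference was -1.15. The Cxcr2 promoter is the printed window with 2 GAGGAA matches.

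Neutrophil markers were lower with rCPS1 as well, beside Cxcr2. The mean level of the 12 listed markers, Csf3r and Lcn2 among them, ran from 6.18 to 6.91 in the rTF arrays and from 5.12 to 5.92 in the rCPS1 arrays, and 12 of 12 had a lower mean with rCPS1. Of these 10 had an unadjusted limma p under 0.05, against 2.79% of all genes lower at that p, and 7 did not overlap between groups, against 1.97%. No marker is at 0, since the values carry a background level, but Camp lay below the median of all array rows. In rCPS1 replicate 4 both Cxcr2 and the marker mean were at their lowest. The part of neutrophil RNA in the Cxcr2 difference was not tested.

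Ccr1, a receptor of monocytes, macrophages and neutrophils for CCL3, CCL5 and, in mice, CCL6 and CCL9, separated the groups only narrowly. It stood at 6.78, 7.75, 7.82 and 7.56 in rTF replicates 1 to 4 and at 6.53, 6.42, 6.77 and 6.40 in rCPS1 replicates 1 to 4. The lowest rTF array, replicate 1, lay only 0.0098 above the highest rCPS1 array, while the other 3 rTF arrays were well above it. The means were 7.48 ± 0.48 (SD, n = 4) and 6.53 ± 0.17 (SD, n = 4), a log2 difference of -0.95 ± 0.22 (SE), or 1.93-fold lower, with a 95% interval from -1.43 to -0.46. The exact permutation p was 0.0286 and the adjusted limma p 0.862.

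Ccr2, the receptor through which CCL2 and CCL7 call classical monocytes out of the marrow, was lower with rCPS1 in the mean but overlapped between groups. Its levels were 6.63, 7.78, 7.43 and 7.29 in the rTF arrays and 6.83, 6.65, 6.84 and 6.78 in the rCPS1 arrays, in replicate order. The rCPS1 arrays lay close together, and rTF replicate 1 was the lowest of the 8. The difference of -0.51 ± 0.21 (SE; 95% interval -0.98 to -0.038), or 1.42-fold lower, had an adjusted limma p of 0.980 and an exact permutation p of 0.143. Its unadjusted p was under 0.05 with the 8 arrays and without rTF replicate 1, but not when any of the other 7 arrays was left out.

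Markers of classical monocytes were lower with rCPS1 as well. The mean of the 8 measured markers, Ly6c2 and Fn1 among them, ran from 8.04 to 8.51 with rTF and from 7.43 to 7.69 with rCPS1. All 8 had a lower mean with rCPS1, 5 of them at an unadjusted limma p under 0.05 (2.79% of all genes), and each lay above the median of all array rows. Ly6c2 has a near-identical relative that its probes may not separate. In rTF replicate 1 the monocyte mean was 8.22, inside the range of its group, whereas Ccr1 and Ccr2 were the lowest of theirs. The neutrophil marker mean, 6.18, was also the lowest of its group in that array, while the Kupffer cell marker mean, 9.62, was the highest. The part of monocyte or neutrophil RNA in the Ccr1 and Ccr2 differences was not tested.

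**Figure D2:**
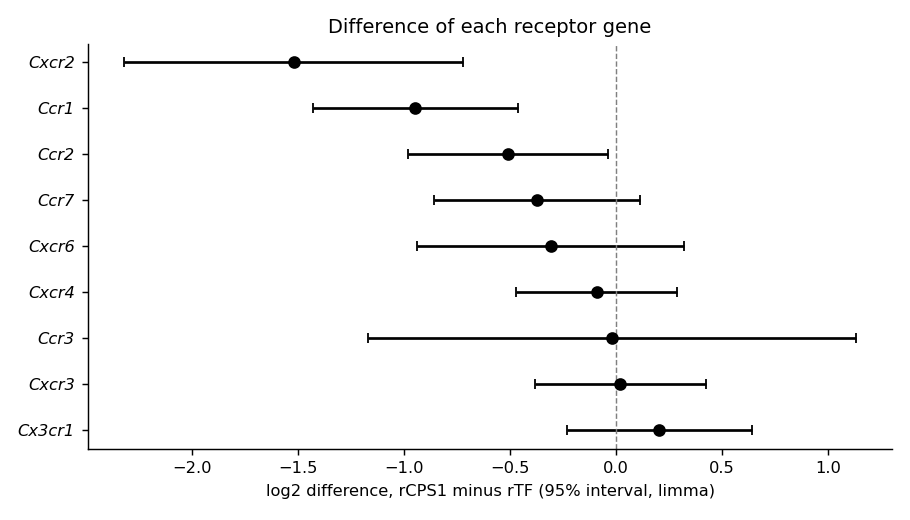
Log2 difference between the rCPS1 and rTF means (horizontal axis) for each of the 9 receptor genes, with the 95% interval from limma. Intervals for Cxcr2 (-2.32 to -0.72), Ccr1 (-1.43 to -0.46) and Ccr2 (-0.98 to -0.038) lie below 0, and those of the other 6 genes cross it. No gene passed after adjustment over all genes.

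Ccr3, the eotaxin receptor of eosinophils, differed more between replicates than between groups. It stood at 8.45, 8.40, 6.96 and 8.52 in the rTF arrays and at 8.82, 6.58, 8.89 and 7.95 in the rCPS1 arrays. Thus 1 array of each group, rTF replicate 3 and rCPS1 replicate 2, was far below most of the others. The group means, 8.08 ± 0.75 and 8.06 ± 1.08 (SD, n = 4 each), differed by -0.018 ± 0.52 (SE). The 95% interval from -1.17 to 1.13 holds changes of more than 2-fold in either direction, and limma gave an adjusted p of 0.999 over all genes. Its SD over the 8 arrays, 0.86, was larger than that of 99.7% of genes. The mean of the 7 eosinophil markers, Alox15 and Siglecf among them, was 3.11 to 3.55 with rTF and 3.11 to 3.46 with rCPS1. The defining granule genes Epx, Prg2 and Prg3 lay below the median of all array rows, as did Il5ra and Ear6. Alox15 varied most of the 7 markers, with an SD of 1.20 in the rTF and 1.15 in the rCPS1 arrays. Siglecf was next at 0.38 and 0.25, so the marker mean mostly followed Alox15. In rTF replicate 3 the marker mean, 3.11, and Alox15, 4.62, were the lowest of their group, as Ccr3 was. The marker mean was nearly the same, 3.12, in rTF replicate 4, where Ccr3 was the highest of its group. In rCPS1 replicate 2, where Ccr3 was also the lowest of its group, the marker mean was the highest at 3.46, with Alox15 at 7.21. The part of eosinophil RNA in the Ccr3 values was not tested.

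The receptors of T and NK cells did not separate the groups. Cxcr3, which binds the interferon-induced chemokines CXCL9 and CXCL10, stood at 4.90, 5.43, 5.47 and 5.42 with rTF and at 5.34, 5.14, 5.73 and 5.09 with rCPS1. The 2 groups span almost the same range, with a difference of 0.021 ± 0.18 (SE), a 95% interval from -0.38 to 0.42 and an adjusted limma p of 0.994. Its sign turned when the arrays were normalized again by quantiles (-0.023).

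Cxcr6, the receptor for CXCL16 on liver T and NKT cells, was at 5.75, 6.73, 6.91 and 6.96 with rTF and at 6.25, 6.36, 6.73 and 5.78 with rCPS1. Its lowest values lay in rTF replicate 1 and rCPS1 replicate 4, so the groups overlapped along most of their range. The difference was -0.31 ± 0.28 (SE; interval -0.94 to 0.32) with an adjusted limma p of 0.980, and it was -0.59 without rTF replicate 1 and -0.14 without rCPS1 replicate 4.

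The 13 measured T and NK cell markers, Cd3e and Il2rb among them, averaged 6.20 to 7.41 in the rTF arrays and 5.90 to 6.44 in the rCPS1 arrays. Of these 12 had a lower mean with rCPS1, against 54.4% of all genes. At an unadjusted limma p under 0.05, 3 of them were lower, against 2.79% of all genes. Only Klrb1c lay below the median of all array rows. The marker mean and both receptors were the lowest of their group in rTF replicate 1 (6.20 for the markers) and in rCPS1 replicate 4 (5.90), and the highest of the rCPS1 group in replicate 3 (6.44). The top of the rTF range was replicate 2, where neither Cxcr3 nor Cxcr6 was at its highest. The part of lymphocyte RNA in the values of these receptors was not tested.

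Ccr7, which takes dendritic cells and naive lymphocytes to lymph nodes along CCL19 and CCL21, spread more among the rTF than among the rCPS1 arrays. It measured 6.81, 7.98, 7.27 and 7.50 with rTF and 7.15, 6.89, 6.90 and 7.15 with rCPS1. As for Ccr2, rTF replicate 1 was the lowest and replicate 2 the highest of the 8 arrays. The difference of -0.37 ± 0.22 (SE; interval -0.86 to 0.12) had an adjusted limma p of 0.980 and an exact permutation p of 0.171, and it was -0.56 when rTF replicate 1 was left out and -0.17 when replicate 2 was. Dendritic cell markers, Cd209a and Fscn1 among the 8 measured, averaged 6.19 to 6.61 with rTF and 6.19 to 6.29 with rCPS1. Of the 8, 7 were lower in the mean (54.4% of all genes). At an unadjusted limma p under 0.05, 1 was lower (2.79% of all genes). In rTF replicate 1 both Ccr7 and the marker mean (6.19) were the lowest of their group. The part of dendritic cell RNA in the Ccr7 values was not tested.

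Cxcr4, the CXCL12 receptor, varied least of the 9 genes. Its levels were 10.73, 10.48, 10.21 and 10.09 with rTF and 10.30, 10.54, 10.33 and 9.98 with rCPS1, with no gap between the groups. The difference was -0.090 ± 0.17 (SE), its 95% interval ran from -0.47 to 0.29 and its adjusted limma p was 0.982. Under array weights the difference was 0.013.

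Cx3cr1, the fractalkine receptor of patrolling monocytes and of some resident macrophages, had the highest difference of the 9. It stood at 6.31, 6.01, 5.84 and 6.53 with rTF and at 6.64, 5.91, 6.48 and 6.47 with rCPS1. In the rCPS1 group 3 arrays lay at 6.47 to 6.64 and replicate 2 near the low rTF arrays. The difference of 0.20 ± 0.20 (SE; interval -0.23 to 0.64) had an adjusted limma p of 0.980 and an exact permutation p of 0.314. It was 0.12 under array weights, and 0.094 or 0.33 when rTF replicate 3 or 4 was left out. Leaving out rCPS1 replicate 1 or 2 gave 0.12 or 0.36. Markers of patrolling monocytes, Treml4 and Nr4a1 among the 7, averaged 8.41 to 9.05 with rTF and 8.75 to 9.09 with rCPS1. Of these 6 had a higher mean with rCPS1, as had 10123 of all 22180 genes, and none had an unadjusted limma p under 0.05. All 8 Kupffer cell markers and all 6 B cell markers measured also had a higher mean with rCPS1, none at such a p. Of the 7 sinusoidal endothelial markers 5 were higher, and of the 7 hepatocyte markers 6 were lower, again none at such a p.

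**Figure D3:**
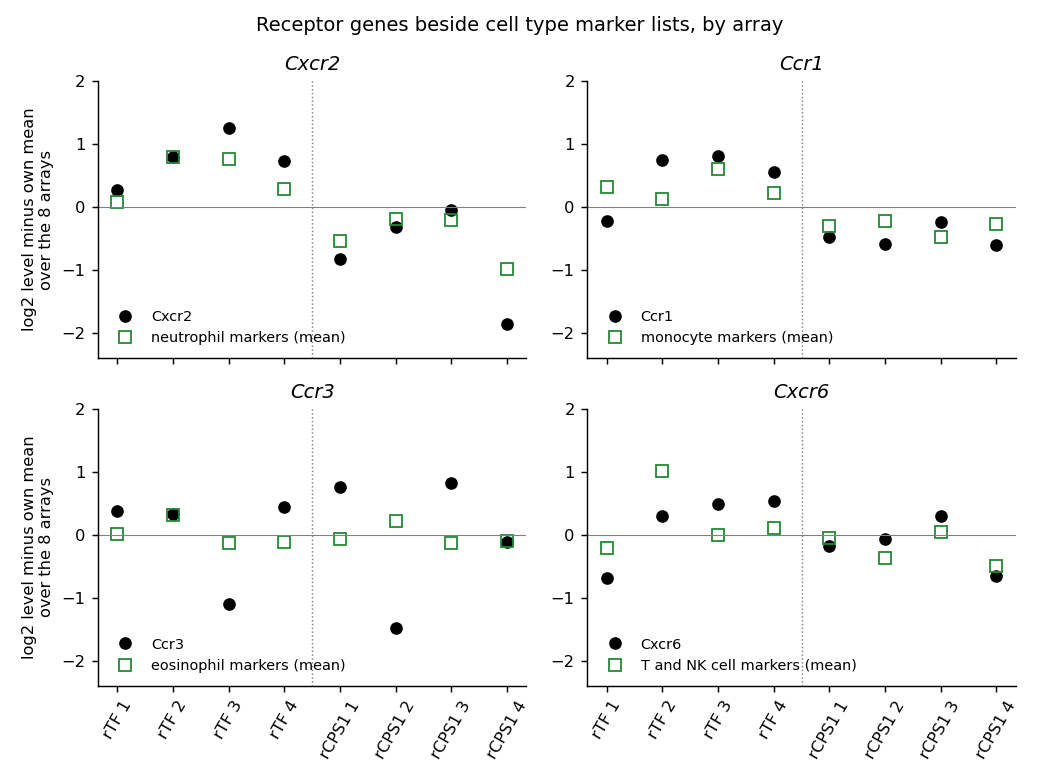
Log2 level minus its own mean over the 8 arrays (vertical axis) for Cxcr2, Ccr1, Ccr3 and Cxcr6 (black) beside the mean of a cell type marker list (green squares), array by array (horizontal axis). Cxcr2 and the neutrophil list are both lowest in rCPS1 replicate 4 (-1.86 and -0.99), whereas Ccr3 in rCPS1 replicate 2 is at -1.49 and the eosinophil list at 0.22. The eosinophil list mean mostly follows 1 marker, Alox15.

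The replicates of a group were not alike in these genes. Of the 9 receptor genes, 6 had their lowest rTF value in replicate 1 (Ccr1, Ccr2, Ccr7, Cxcr2, Cxcr3 and Cxcr6), whereas 31.0% of the genes above the median of all array rows had theirs there. Cxcr4 instead had its highest value in that array. In the rCPS1 group 6 of the 9 were highest in replicate 3, against 22.1% of the genes above that median, and 5 were lowest in replicate 4, against 25.7%. Without rTF replicate 1, 5 receptor genes were lower at an unadjusted p under 0.05, the 3 above with Ccr7 and Cxcr6, against 3.21% of all genes, and 4 (Ccr1, Ccr2, Ccr7 and Cxcr2) did not overlap, against 3.82%. No receptor gene passed after adjustment over all genes without that array or without any other.

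Likeness to other genes was measured as the root mean square (RMS) difference over the 8 arrays between log2 levels, each gene's own mean taken off, among 17253 candidate genes. The 3 genes nearest to Cxcr2 were Retnlg (RMS difference 0.28), a secreted factor of neutrophils, S100a8 (0.28), a subunit of calprotectin, and Stfa2l1 (0.28), one of several closely alike stefin genes. Cxcr2's own RMS deviation from its mean was 0.94. Retnlg and S100a8 are also in the neutrophil list. Nearest to Ccr1 (own deviation 0.57) were Il1r2 (0.16), the decoy receptor for interleukin 1 and also on the neutrophil list, the myeloid lectin receptor gene Clec5a (0.20) and the nucleoside kinase gene Uck2 (0.22). The difference of Il1r2 between groups was -0.76 and that of Clec5a -0.82, beside -0.95 for Ccr1. Likeness was taken over the arrays of both groups, so similar group differences follow from the choice of near genes.

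Ccr2 and Ccr7 had 1 near gene in common, Lmnb1, the gene of lamin B1 of the nuclear envelope, at RMS differences of 0.11 and 0.081. The others were Gpr171 (0.11) and Gem (0.11) for Ccr2, and P3h2 (0.079) and Gpr180 (0.087) for Ccr7. For Ccr3 the nearest genes lay at 0.33 (Trim30d), 0.35 (the immunoglobulin light chain segment Igkv4-91) and 0.38 (Nr1i3), beside an own deviation of 0.80, so its pattern was matched less closely in absolute terms than those above. Those nearest to Cxcr6 were Abcb1a (0.19), Sp5 (0.20) and Astn2 (0.20), the last a neuronal gene. The remaining receptors varied less than those above, but their SD was still larger than that of 58.4% (Cxcr4) to 75.8% (Cx3cr1) of genes. Their nearest genes were Crem, Ifna7 and Gli2 for Cxcr3, Dzip1, Fam102a and Gde1 for Cxcr4, and Xrcc3, Ghrhr and Atxn1 for Cx3cr1. These lay at RMS differences of 0.069 to 0.11. Of the near genes named, Sp5, Gli2 and Ghrhr had both group means below 3.60, the median of all array rows. With 17253 candidates and only 8 arrays, close matches can arise by chance.

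Of the 9 genes, 5 lie on chromosome 9, and 4 of them sit in 1 receptor cluster, where RefSeq (GRCm38.p6, used for names and order) lists the protein-coding genes Ccr9, Fyco1, Cxcr6, Xcr1, Ccr1, Ccr1l1, Ccr3 and Ccr2 in a row. Along that row the log2 differences were -0.15, -0.018, -0.31, -0.22, -0.95, -0.18, -0.018 and -0.51. Ccr3, which lies between Ccr1 and Ccr2 in that row, thus had a difference near 0. Ccr1l1, a close relative of Ccr1, was at 1.71 ± 0.21 with rTF and 1.53 ± 0.11 with rCPS1 (SD, n = 4 each), below the median of all array rows. Receptor genes of this cluster resemble each other in sequence, and the extent to which their probes also take up a neighbour's RNA was not tested.

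Among 14 other receptors of the family, atypical and scavenging ones included, 9 were lower and 5 higher with rCPS1. Of all genes 54.4% were lower. None of the 14 passed after adjustment, and 1 was lower at an unadjusted limma p under 0.05, against 2.79% of all genes. That was Ccrl2, which binds the attractant chemerin without signalling and presents it to other cells, at 9.51, 9.78, 9.04 and 9.31 with rTF and 9.08, 9.03, 9.09 and 9.03 with rCPS1. The rCPS1 arrays were nearly equal and rTF replicate 3 lay among them. Its difference of -0.35 ± 0.15 (SE) had an adjusted limma p of 0.980. The next lower ones were the T cell receptor for CCL17 and CCL22, Ccr4 (-0.56 ± 0.28), and the CXCL12 scavenger Ackr3 (-0.38 ± 0.21). The higher ones of smallest p were Ackr4 (0.24 ± 0.20), Ccr10 (0.12 ± 0.17) and the B cell receptor for CXCL13, Cxcr5 (0.11 ± 0.21). Only 7 of the 14 lay above the median of all array rows, and Ccr4, Ackr4 and Ccr10 were not among them. The median difference was -0.14.

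Ligands of the 9 receptors were lower in 16 and higher in 6 of 22 cases, with a median of -0.15. Of all genes 54.4% were lower. No ligand passed after adjustment. At an unadjusted limma p under 0.05, 2 were lower (2.79% of all genes), and the same 2 did not overlap between groups (1.97%). Both are ligands of Ccr1. Ccl9 was at 10.57, 10.46, 10.52 and 10.35 with rTF and 10.06, 10.11, 10.05 and 9.92 with rCPS1, and the groups stood apart. Its difference was -0.44 ± 0.10 (SE; adjusted limma p = 0.862, exact permutation p = 0.0286). Ccl5, which T and NK cells also make, was at 10.41, 10.07, 10.05 and 10.11 against 9.83, 9.83, 9.82 and 9.89, again without overlap. The difference of Ccl5 was -0.32 ± 0.11 (SE; adjusted limma p = 0.980, exact permutation p = 0.0286). Another Ccr1 ligand, Ccl6, differed by -0.28 ± 0.16. Ccl3, given here as a Ccr1 ligand and not for its value, differed by only -0.060 ± 0.17. The groups overlapped for both Ccl6 and Ccl3. The higher ligands of smallest p were the interferon-induced Cxcr3 ligands Cxcl11 (0.36 ± 0.29) and Cxcl10 (0.20 ± 0.19) and the Cx3cr1 ligand Cx3cl1 (0.20 ± 0.19), each with overlapping groups.

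For the remaining receptors the ligands are named for the receptor they bind and not for their values. The Cxcr2 ligands Cxcl1 (-0.052 ± 0.13, SE), Cxcl2 (-0.14 ± 0.23), Cxcl3 (-0.56 ± 0.51) and Ppbp (-0.14 ± 0.35) each overlapped between groups, beside the difference of -1.52 in their receptor. So did the Ccr2 ligands Ccl2 (-0.092 ± 0.20) and Ccl7 (-0.17 ± 0.30). The eotaxin genes Ccl11 (-0.56 ± 0.53) and Ccl24 (-0.20 ± 0.19), the Cxcr4 ligand Cxcl12 (-0.34 ± 0.36) and the Cxcr6 ligand Cxcl16 (0.035 ± 0.11) did not pass either. Among 27 genes that carry or end the receptors' signal, 24 were lower and 3 higher, with a median of -0.14. Of all genes 54.4% were lower. Of the 27, 3 were lower at an unadjusted limma p under 0.05, against 2.79% of all genes, and none passed after adjustment. They were Rgs18 (-0.35 ± 0.14), which shortens G protein signals, Grk6 (-0.25 ± 0.11), a kinase that desensitizes such receptors, and Rac2 (-0.29 ± 0.13), the GTPase of blood cells that drives migration. The groups did not overlap for Grk6, which stood at 7.27, 7.45, 7.29 and 7.17 with rTF and 7.02, 7.07, 7.12 and 6.95 with rCPS1. The 3 higher ones were Grk3 (0.24 ± 0.20), Gnai3 (0.066 ± 0.10) and Gnb1 (0.0066 ± 0.10), the last 2 being G protein subunits.

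**Figure D4:**
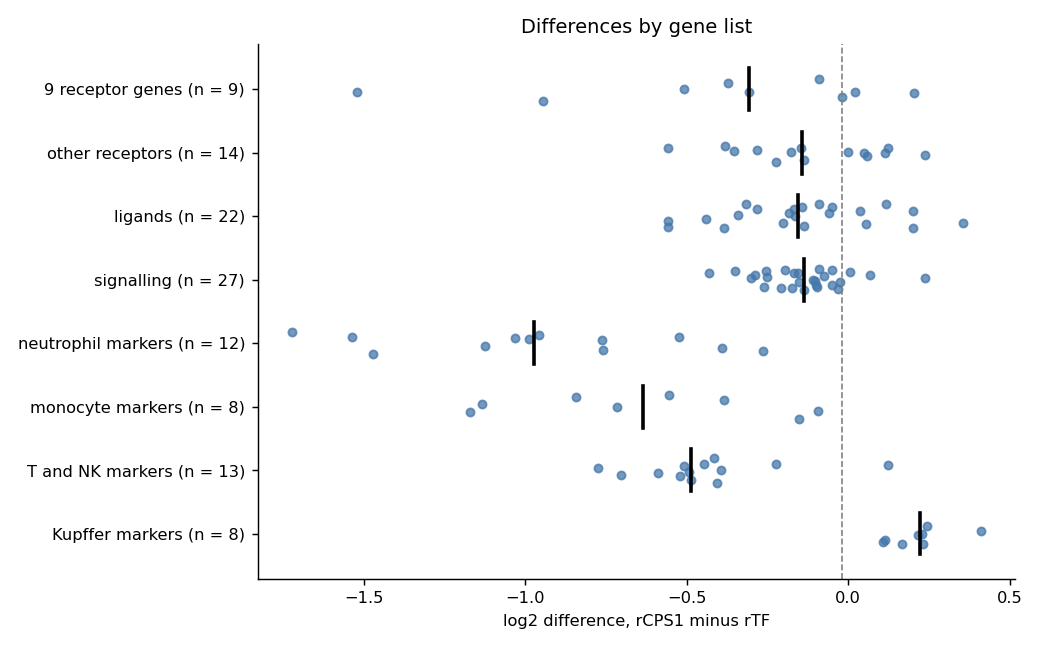
Log2 difference between rCPS1 and rTF (horizontal axis) of each gene in 8 lists, with the median of each list as a black bar and the median of all genes (-0.018) as a dashed line. The medians are -0.31 for the 9 receptor genes, -0.14 for the other receptors, -0.15 for the ligands and -0.14 for signalling genes, beside -0.97 for neutrophil, -0.64 for monocyte, -0.49 for T and NK cell and 0.22 for Kupffer cell markers.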

How the data were processed

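RNA of hepatic macrophages was measured on 8 Affymetrix arrays, per the labels' protocols. The authors deposited log2 levels made with RMA (background correction, quantile normalization, probe summary), per the submitters' processing notes, which also name limma. Quantile normalization hides a shift shared by most genes. The time from acetaminophen to isolation, the isolation method and the array's genome build are not given in the sources used here.

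Of 41345 array rows, 23521 named exactly 1 gene, 1814 several and 16010 none in the platform annotation; only the first were used, by Entrez ID 23328 matched RefSeq, 0 symbols changed, and the row of highest mean was taken for 1082 genes with several. The groups were compared in R 4.3.3 by limma 3.58.1 without covariates or filter, tested on simulated data. Exact permutation tests used all 70 assignments. The number of arrays limits the precision.

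The members and lists (other receptors, ligands, signalling, 10 marker lists) were chosen with earlier results of these data known. Named are the 9 members, of each pathway list the 3 genes of smallest p in each direction, the 3 nearest genes of each member whose mean and SD exceed the median gene's (predicted, small RNA and chemosensory genes left out), and the 2 markers of highest mean in each list. Alternatives were a filter on dim rows, trended and robust variance, array weights, the replicate block, renewed quantile normalization, row means, all rows tested and each array left out.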

Additional observations from a re-analysis of the deposited data

Results flagged for a closer look

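In groups of 4 arrays, the highest or lowest was set against the others by its gap divided by the range. An array stood out in 5 of 94 groups of values, against 4.7 expected, since chance gives about 1 in 20. Ccr3 was at 6.96 in rTF replicate 3 (other rTF arrays 8.40 to 8.52). Cxcr3 was at 4.90 in rTF replicate 1 (5.42 to 5.47). In the same array Ccl6 was at 8.54 (8.12 to 8.18) and Cd79b at 6.76 (7.77 to 7.79). Ccl5 was at 9.89 in rCPS1 replicate 4 (9.82 to 9.83).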

How the results depend on the processing

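No gene passed after adjustment in any of the 15 alternatives run with limma, which left 609 to 1240 genes at an unadjusted p under 0.05, and Cxcr2, Ccr1 and Ccr2 were the receptor genes lower at an unadjusted p under 0.05 in each of the 7 that kept all arrays. Leaving out 1 array gave 2 to 5 such genes and 2 to 4 without overlap, the upper values without rTF replicate 1. The difference ran from -0.39 to 0.47 for Ccr3, from -0.12 to 0.10 for Cxcr3 and from -0.19 to 0.028 for Cxcr4. It ran from -1.76 to -1.15 for Cxcr2, from -1.18 to -0.83 for Ccr1 and from -0.73 to -0.34 for Ccr2. The same alternatives gave 0 to 3 other receptors (0 without rTF replicates 2 or 4 or rCPS1 replicates 1, 3 or 4; 2 without rTF replicate 1; 3 without rTF replicate 3), 2 to 4 ligands (4 without rCPS1 replicate 3) and 0 to 3 signalling genes (1 without rTF replicate 2 or rCPS1 replicate 2, 0 without rCPS1 replicate 4) with an unadjusted p under 0.05. With the replicate number as a block, 2 other receptors, 3 ligands and 1 signalling gene had such a p, and the other counts were as without it. The correlation of deviations ran from -0.12 to 0.025 in same-numbered arrays and from -0.16 to 0.19 in differently numbered ones. These few values cannot settle whether the numbers pair the arrays. Array weights gave 0 signalling genes, -0.032 for Cxcr3 and 0.013 for Cxcr4. Testing all array rows left 0 other receptors and 2 signalling genes, and renewed quantile normalization gave 4 signalling genes and -0.023 for Cxcr3. Causes were not tested.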
